A study of Mus musculus with 24 samples.

Results

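The response described here is that of splenic non-B cells of wild-type mice to whole-body ionizing radiation (IR). The changes given for it are between samples among 8 of the 24 RNA-Seq samples of the study, all samples that the labels give as Trp53+/+ non-B cells, 4 of them from irradiated and 4 from mock mice. The other 16 samples are B cells of both genotypes and Trp53-/- non-B cells, and they are used below where the response of wild-type non-B cells was compared with them. The 4 Trp53-/- non-B samples were also part of the fit behind the wild-type results, where they added to the estimate of the spread. All mice were of the C57/Bl6 strain and 8 weeks old, and the irradiated mice had received 7 Gy, 4 h before the spleen was taken. The Trp53-/- non-B groups, with 2 mock and 2 irradiated samples, were of the same strain, age, dose and time and differed in carrying the p53 knockout allele. Non-B cells were the cells that passed a magnetic column after red cell lysis and incubation with beads against B220, so that they are a mixture of T cells, NK cells, myeloid cells, the nucleated erythroid cells that survive lysis and B cells that escaped the beads.

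The spleen of a young mouse holds resting T and B lymphocytes, which are among the most radiosensitive cells of the body, together with neutrophils, monocytes, resident macrophages and a population of dividing erythroid precursors. DNA double-strand breaks activate the kinase ATM, which stabilizes the transcription factor p53. p53 then switches on genes that halt the cell cycle, open the mitochondrial route of apoptosis, repair DNA and restrain growth, and it limits itself by inducing its own ubiquitin ligase, Mdm2. Macrophages and neutrophils tolerate the same dose far better and are known to take up dying cells and to release cytokines.

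Expression is given as RPKM, the reads on a gene scaled to its exon length in kilobases and to the depth of the library, and differences as log2 fold changes (IR against mock) of RPKM + 0.5, with the standard error (SE) of the limma fit and a p adjusted by the Benjamini-Hochberg method over all 14018 genes tested. To enter the fit, a gene needed 1 of its 8 values to exceed an RPKM of 1. A gene is called higher or lower where its adjusted p was below 0.05 and its log2 fold change beyond 0.58 in size, and the words rose and fell are kept for such genes. The steps between low RPKM values put the depth of the 8 libraries between 6.95 and 10.84 M reads on exons (M for mega), and a single read over 2 kilobases of exon then equals an RPKM of 0.0461 to 0.0719. The share of 1537 receptor, keratin-associated and skin genes that had any reads was 8.07% to 8.98% in the mock samples and 24.98%, 8.33%, 51.4% and 35.5% in IR samples 1 to 4, so that 3 of the 4 irradiated libraries stood apart. In Trp53-/- non-B cells this share was 7.74% and 8.52% in the mock and 8.20% and 8.00% in the irradiated samples. In wild-type B cells it was 4.94% to 7.29% in the mock samples and 37.5%, 47.2%, 6.38% and 15.0% in IR samples 1 to 4. A fit with the mean log2(RPKM + 0.5) of these 1537 genes in each sample as a covariate (the silent-gene covariate) called 423 genes. Mock samples 1 and 2 also stood apart from mock samples 3 and 4, with a rank correlation across genes of 0.992 and 0.988 within these pairs and of 0.941 to 0.961 between them. Within samples numbered 1 and 2, 1498 genes were called, 482 higher and 1016 lower. Within samples 3 and 4, 1016 were called, 724 higher and 292 lower.

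Trp53 itself, the gene targeted in the knockout, had an RPKM of 44.4, 43.4, 49.5 and 49.001 in the mock samples and 36.1, 37.9, 35.02 and 38.6 after IR. Every irradiated sample lay below every mock sample, by a log2 fold change of -0.33 ± 0.065 (SE, adjusted p = 0.00650), less than the fold threshold. In Trp53-/- non-B cells it measured 23.97 and 25.04 in the mock and 34.6 and 36.4 in the irradiated samples, so the knockout samples kept reads over the gene, at about the wild-type level after IR. Which exons these reads covered cannot be read from values per gene. Markers of the expected lineages were present in all 8 samples, among them Cd3e of the T cell receptor complex at 47.2 to 81.8, the NK cell receptor Ncr1 at 34.4 to 68.0 and the macrophage receptor Csf1r at 49.6 to 81.0. B cells were reduced but not removed. The summed RPKM of 20 B cell genes was 634, 870.2, 951 and 985 in the mock samples and 585, 867, 422 and 724 after IR, against a mean of 2106 in wild-type mock B cells.

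IR moved 1381 of the 14018 genes (9.85%) in wild-type non-B cells, 805 upward (5.74%) and 576 downward (4.11%). Among them, 394 rose and 243 fell by more than 1 on the log2 scale, while the median of all genes was -0.030. Without mock samples 1 and 2, 1010 genes were called higher and 444 lower, and the lower calls came down to 378 without mock sample 2 and to 351 without IR sample 3. All 4 irradiated samples lay above all 4 mock samples for 1407 genes (10%) and below them for 1690 genes (12.1%), whether called or not. Of the genes called higher, 204 had a mean RPKM below 1 in the mock samples, and 88 of those called lower had one below 1 after IR. The genes were then read by lineage and by function, with 32 lists of named genes. Each list count below stands beside these shares of all genes, 5.74% called higher and 4.11% called lower.

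**Figure D1:**
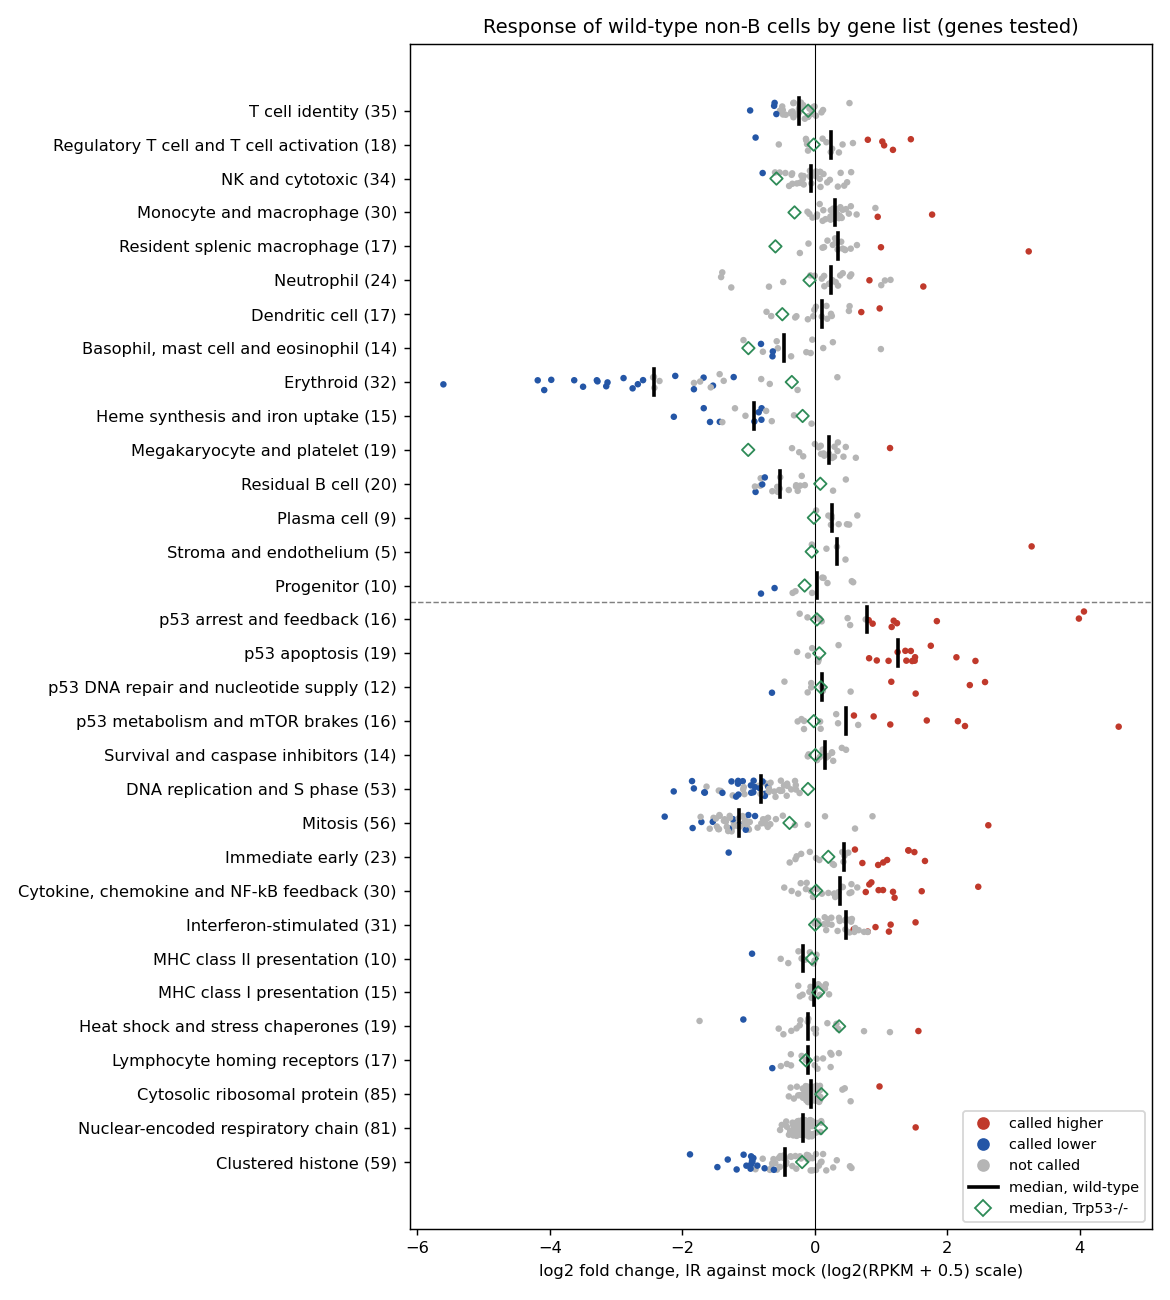
Log2 fold change (IR against mock, on log2(RPKM + 0.5)) of every tested gene of 32 lists in wild-type non-B cells, with lineage lists above and function lists below the dashed line and the number of genes tested in brackets. Points are genes, bars the list median in wild-type cells and diamonds that in Trp53-/- cells. The erythroid list has the lowest median (-2.43) and p53 apoptosis the highest (1.25). The NK (-0.059) and MHC class I (-0.0061) medians lie near 0, and those of T cells (-0.24) and MHC class II (-0.17) lie below it.

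Of 63 tested genes in 4 lists of p53 target genes, 32 rose and 1, the translesion polymerase gene Polh, fell. In Trp53-/- non-B cells, 1 of the 63 was called higher, Aen, and the medians of the 4 lists lay between -0.016 and 0.090, against a share of 0.193% of all genes called higher in that genotype. The lists were put together from genes that p53 is known to activate.

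Among genes of arrest and feedback, 8 of 16 rose and none fell, with a median of 0.79. Cdkn1a (chromosome 17, 29227924 to 29237667 of mm9), which encodes the cyclin-dependent kinase inhibitor p21, had an RPKM of 5.87, 5.83, 2.85 and 3.73 in the mock samples and 75.6, 88.3, 75.7 and 69.6 after IR. The groups lay far apart, with a log2 fold change of 3.99 ± 0.21 (SE, adjusted p = 3.89e-07). Plk2, a polo-like kinase induced by damage, went from 4.17, 4.35, 1.97 and 1.68 in the mock samples to 51.95, 57.8, 54.5 and 56.4 after IR, a log2 fold change of 4.06 ± 0.31 (SE, adjusted p = 7.07e-06). Mdm2 began from a higher level, with 30.9, 31.9, 33.2 and 30.4 in the mock samples and 73.4, 73.3, 73.3 and 70.8 after IR, and the irradiated samples were close to each other. Its change was a log2 fold change of 1.19 ± 0.054 (SE, adjusted p = 1.49e-07). For all 3 genes the change differed from that in Trp53-/- cells, in which Cdkn1a measured 1.38 and 2.35 in the mock and 2.42 and 2.63 in the irradiated samples (adjusted p of the genotype difference 0.000269 for Cdkn1a, 0.00507 for Plk2 and 4.48e-05 for Mdm2). Ccng1, Ppm1d, Zmat3, Trp53inp1 and Plk3 rose as well, by between 0.81 and 1.84, and of the 8 only Plk3 had no significant genotype difference (adjusted p = 0.621). Genes given from here on only by name or by a single value were chosen from their lists after their values were seen.

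The promoters of 3 risen genes held a close match to the p53 response element, the 20-base site that p53 binds as a tetramer. They are shown as RefSeq gives them for GRCm38.p6, from 5′ to 3′ on the strand of the gene, with the element in capitals, because the mouse Cdkn1a site is the classic example of direct induction.
Cdkn1a (chr17:29090888-29090978, plus strand): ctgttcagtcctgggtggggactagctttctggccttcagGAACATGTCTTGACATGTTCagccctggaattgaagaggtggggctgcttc
Ccng1 (chr11:40755422-40755521, minus strand): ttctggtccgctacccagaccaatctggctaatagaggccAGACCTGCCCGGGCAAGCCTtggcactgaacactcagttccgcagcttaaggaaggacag
Gtse1 (chr15:85859945-85859964, plus strand, element alone): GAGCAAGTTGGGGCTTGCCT
The first base of the element lay at position -51 from the start for Cdkn1a, -195 for Ccng1 and -1 for Gtse1, whose element thus lies mostly past the start, and the Ccng1 stretch ends before the start. Each element had 1 mismatch to the consensus p53 response element without a spacer, with its 4 central C and G bases intact, and the consensus reads the same on both strands. Windows of 300 bases, 250 before to 50 after the start, were found for 10825 of the 14018 genes. Where a gene had more than 1 window, the window with the best match and its start were taken. With up to 2 mismatches, 47 of these genes had an element (0.434%), against 8 of 605 genes called higher (1.32%) and 1 of 435 called lower (0.23%). Counted by single windows instead, 107 of all 32851 held one (0.326%). Of the risen p53 list genes, 2 of 27 with a window held one, and of those not called 1 of 23. A match is a description of the sequence, and elements outside these windows were not searched.

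Among apoptosis genes 13 of 19 rose and none fell, with a median of 1.25, and all 13 differed between genotypes. Bbc3, which encodes the BH3-only protein Puma, had 9.74, 9.43, 12.3 and 10.3 in the mock samples and 60.9, 61.6, 54.5 and 55.1 after IR. No mock sample came near an irradiated one, and the change was a log2 fold change of 2.42 ± 0.12 (SE, adjusted p = 2.39e-07), against 0.26 in Trp53-/- cells. Tnfrsf10b, the mouse death receptor for TRAIL, had 4.54, 4.54, 6.37 and 5.38 in the mock samples and 22.99, 21.8, 25.3 and 28.02 after IR, a log2 fold change of 2.14 ± 0.14 (SE, adjusted p = 2.01e-06). Bax, the pore-forming effector of the mitochondrial route, had 26.3, 26.1, 24.6 and 30.4 in the mock samples and 75.7, 79.9, 73.9 and 78.8 after IR, a log2 fold change of 1.51 ± 0.072 (SE, adjusted p = 1.85e-07). In Trp53-/- cells Bax measured 24.1 and 23.1 in the mock and 32.7 and 29.8 in the irradiated samples, a log2 fold change of 0.39 (adjusted p = 0.104), and the genotypes differed (adjusted p = 0.000557). Aen, a nuclease gene induced by damage, was the one p53 list gene that rose in both genotypes, from 23.5, 20.6, 23.8 and 26.6 to 79.7, 78.6, 80.4 and 82.95 in wild-type and from 20.2 and 19.5 to 35.8 and 31.6 in Trp53-/- samples, by 1.75 and 0.74 on the log2 scale (adjusted p = 1.49e-07 and 0.0262), with the larger change in wild-type cells (adjusted p of the difference 0.00181). Fas, Pmaip1 (Noxa), Apaf1, Bcl2l11 (Bim), Ei24 and Pidd1 rose by between 0.82 and 1.51. None of 14 survival and caspase inhibitor genes was called, with log2 fold changes between -0.11 and 0.47. Bcl2 had 35.4, 37.5, 49.5 and 39.2 in the mock samples and 42.97, 47.8, 44.5 and 39.1 after IR, and Mcl1 106, 102, 118 and 108 in the mock samples and 127, 129, 122 and 98.1 after IR, both overlapping between the groups.

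Of 12 genes for DNA repair and nucleotide supply, 4 rose. Mgmt, which removes alkyl groups from guanine, had 1.99, 3.66, 2.86 and 2.49 in the mock samples and 15.2, 13.2, 18.7 and 30.6 after IR, a log2 fold change of 2.57 ± 0.26 (SE, adjusted p = 8.36e-05). Polk, a translesion polymerase, had 7.25, 7.89, 8.21 and 8.01 in the mock samples and 36.7, 37.3, 44.5 and 49.5 after IR, a log2 fold change of 2.34 ± 0.13 (SE, adjusted p = 4.36e-07). The other translesion polymerase of the list, Polh, went the other way, from 24.7, 25.1, 16.9 and 17.1 to 13.5, 13.1, 11.8 and 13.3, by -0.65 ± 0.13 (SE, adjusted p = 0.00773), and this call was lost without mock sample 1 or mock sample 2, whose values are the higher ones. The nucleotide excision repair genes Ddb2 and Xpc were not called, with 15.2, 16.5, 21.9 and 21.5 in the mock samples and 19.2, 16.6, 21.2 and 24.6 after IR for Ddb2. Of 16 genes of metabolism and the brakes on mTOR, 7 rose. Phlda3, which blocks Akt at the membrane, was the most changed, by 4.59, while Cpt1c, a carnitine palmitoyltransferase gene of low expression, had 0.821, 0.578, 0.191 and 0.273 in the mock samples and 3.82, 3.78, 3.61 and 4.86 after IR, a log2 fold change of 2.27 ± 0.22 (SE, adjusted p = 5.7e-05). Sesn2 rose by 2.16 and its paralog Sesn1, a classic p53 target in fibroblasts, measured 28.7, 32.8, 41.8 and 36.6 in the mock samples and 27.2, 29.7, 30.02 and 33.6 after IR, with a log2 fold change of -0.20 ± 0.11 (SE, adjusted p = 0.215).

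**Figure D2:**
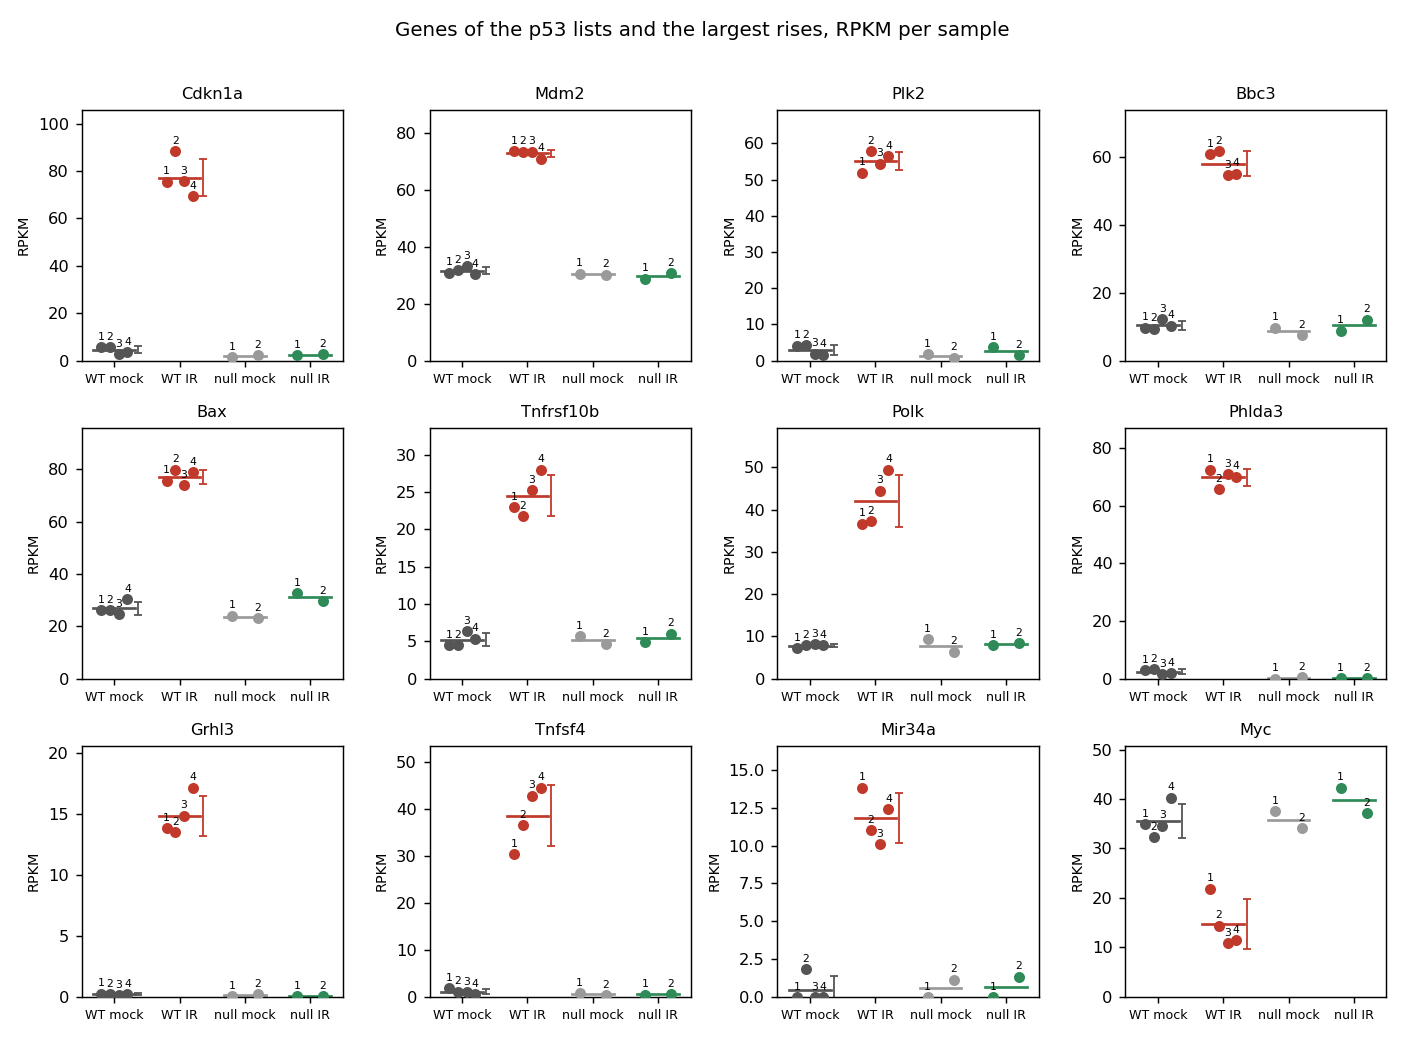
RPKM of 12 genes in each wild-type (WT) and Trp53-/- (null) non-B sample, with sample numbers, group means as lines and the SD beside the wild-type groups. For the first 11 genes all 4 irradiated wild-type samples lie above all mock samples, and Myc lies below, while none of the 12 genes was called in the null samples, where Bax measured 24.1 and 23.1 in the mock and 32.7 and 29.8 in the irradiated samples.

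Outside the lists, the 5 largest rises with no overlap between the groups and a mean RPKM of at least 5 after IR were those of 1700007K13Rik, Tnfsf4, Grhl3, Epha2 and Mir34a, and all were at 1.835 or less in every mock sample. Tnfsf4, which encodes OX40 ligand, a costimulator of T cells, had 1.80, 1.10, 1.02 and 0.534 in the mock samples and 30.5, 36.6, 42.8 and 44.5 after IR, a log2 fold change of 4.64 ± 0.25 (SE, adjusted p = 4.32e-07). Grhl3, a transcription factor of epithelia (chromosome 4 of mm9), had 0.260, 0.236, 0.126 and 0.232 in the mock samples and 13.8, 13.5, 14.8 and 17.1 after IR, a log2 fold change of 4.42 ± 0.16 (SE, adjusted p = 3.92e-08). The mean RPKM after IR was 69.4 times the mock mean. The ephrin receptor gene Epha2 had 0.532, 0.503, 0.659 and 0.577 in the mock samples and 15.7, 19.5, 14.7 and 21.5 after IR, a log2 fold change of 4.09 ± 0.28 (SE, adjusted p = 3.64e-06). The uncharacterized gene 1700007K13Rik was listed at 0 in 3 mock samples and 0.233 in the other, and at 16.3, 12.4, 16.9 and 21.5 after IR. None of these 4 was called in Trp53-/- cells, where their log2 fold changes lay between -0.26 and 0.02, and each difference between genotypes passed (adjusted p at most 0.000557).

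The fifth, Mir34a, is the locus of miR-34a, a direct target of p53 that restrains cell cycle genes through the seed of its mature strand. The mature sequences, from RefSeq for GRCm38.p6 with the seed (bases 2 to 8) in capitals, are given because the locus was among these 5.
miR-34a-5p (chr4:150068473-150068494, plus strand): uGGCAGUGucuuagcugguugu
miR-34a-3p (chr4:150068517-150068537, plus strand): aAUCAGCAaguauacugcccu
The locus had an RPKM of 0, 1.835, 0 and 0 in the mock samples and 13.8, 11.04, 10.1 and 12.4 after IR, a log2 fold change of 4.06 ± 0.57 (SE, adjusted p = 0.000773), and 0 and 1.13 against 0 and 1.33 in Trp53-/- samples (adjusted p of the genotype difference 0.0341). These reads are fragments of long RNA over the locus, and they do not measure the mature microRNA. The locus is short, so each of the mock values rests on few reads or none.

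Of 32 tested erythroid genes 19 fell and none rose, against 4.11% of all genes called lower, and the median log2 fold change was -2.43. Klf1, the transcription factor that defines the lineage, had 56.01, 52.8, 8.23 and 19.2 in the mock samples and 2.59, 0.0920, 0.968 and 1.27 after IR, a log2 fold change of -4.18 ± 0.73 (SE, adjusted p = 0.00326). The mock group varied widely, with samples 1 and 2 high, and yet the highest irradiated sample was below the lowest mock sample. Car1, the carbonic anhydrase of early erythroid cells, had 60.6, 47.6, 31.2 and 36.7 in the mock samples and 0.617, 0.226, 1.01 and 0 after IR, and was close to absent in every irradiated sample. Hbb-b1, a beta globin gene with close copies, fell by 1.23 with overlap, a call lost without any 1 of mock samples 1, 2 and 3, IR samples 2, 3 and 4 and the irradiated Trp53-/- samples. The anion exchanger gene Slc4a1 overlapped between the groups and was not called (adjusted p = 0.225).

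Summed over the list, the erythroid RPKM was 1316, 1279.7, 332 and 439 in the mock and 376, 163, 139 and 153 in the irradiated samples. IR sample 1 lay inside the mock range and the other 3 below it. Outside the list, the 5 largest falls without overlap were Atp1b2, Pklr, Tfr2, Gstm5 and Bex4, and all 5 had mock samples 1 and 2 above mock samples 3 and 4. Pklr, the pyruvate kinase of red cells and liver, had 43.6, 35.1, 8.85 and 10.7 in the mock samples and 0.504, 0.201, 0.979 and 0.937 after IR, a log2 fold change of -4.19 ± 0.65 (SE, adjusted p = 0.00165). Tfr2, a transferrin receptor that partners the erythropoietin receptor, had 24.4, 16.5, 4.17 and 4.78 in the mock samples and 0.158, 0, 0.246 and 0.239 after IR, a log2 fold change of -3.95 ± 0.56 (SE, adjusted p = 0.000851). Atp1b2, a sodium pump subunit, had 29.7, 24.9, 8.81 and 8.63 in the mock samples and 0.130, 0.0950, 0.386 and 0.164 after IR, a log2 fold change of -4.54 ± 0.56 (SE, adjusted p = 0.000310). Genes for heme synthesis and iron uptake followed, with 8 of 15 called lower, none higher and all 15 below 0. Tfrc, the transferrin receptor through which dividing cells and erythroid precursors take up iron, had 57.9, 55.4, 23.4 and 25.02 in the mock samples and 11.1, 11.3, 9.66 and 13.1 after IR, a log2 fold change of -1.68 ± 0.30 (SE, adjusted p = 0.00372). Steap3, which reduces the iron so taken up, had 26.2, 20.9, 6.995 and 7.84 in the mock samples and 3.27, 1.77, 2.66 and 3.09 after IR, a log2 fold change of -2.13 ± 0.48 (SE, adjusted p = 0.0131). Alas2, the erythroid enzyme that starts heme synthesis, had 29.9, 34.2, 29.4 and 15.2 in the mock samples and 21.4, 7.33, 9.24 and 15.7 after IR, which overlapped, and was not called (adjusted p = 0.0527).

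These counts depended on the libraries. The erythroid calls numbered 12 without IR sample 3, 6 without mock samples 1 and 2, 16 within samples 1 and 2, 5 within samples 3 and 4, and 4 with the silent-gene covariate, and the list median lay between -3.21 within samples 1 and 2 and -1.19 without mock samples 1 and 2. The heme calls were 5 without mock sample 2 or IR sample 3, 2 without mock samples 1 and 2 and 1 with the covariate. In Trp53-/- non-B cells the erythroid sum was 177 and 833 in the mock and 305 and 255 after IR, with a list median of -0.35 and no gene called. The genotype difference passed for 1 of the 32 genes, Car1 (adjusted p = 0.00341). As everywhere in bulk samples, fewer cells of a type and less RNA per cell cannot be told apart.

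Genes of cell division were lower in the same samples. All 53 tested genes of DNA replication and S phase had a log2 fold change below 0, 22 of them were called lower and the median was -0.82. Mcm2, a subunit of the replicative helicase, had 54.8, 51.6, 26.6 and 31.8 in the mock samples and 17.6, 15.7, 14.7 and 16.7 after IR, a log2 fold change of -1.26 ± 0.22 (SE, adjusted p = 0.00313). Ccne1, the cyclin that drives entry into S phase, had 43.6, 40.1, 20.8 and 22.6 in the mock samples and 8.07, 5.83, 8.65 and 9.84 after IR, a log2 fold change of -1.85 ± 0.24 (SE, adjusted p = 0.000507), and was called in every fit that left out 1 library. Cdc6, which loads the helicase, had 25.5, 24.3, 4.27 and 5.94 in the mock samples and 3.12, 2.22, 2.18 and 1.54 after IR, a log2 fold change of -2.13 ± 0.58 (SE, adjusted p = 0.0274), with its 4 mock samples in 2 separate pairs, and it was not called without any 1 of mock samples 1 and 2 and IR samples 2, 3 and 4. Pcna, the sliding clamp and itself a p53 target, had 87.7, 86.03, 69.4 and 66.95 in the mock samples and 50.4, 60.4, 53.1 and 54.6 after IR, a separation with a change of -0.49 that stayed inside the fold threshold (adjusted p = 0.0101).

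Of 56 mitosis genes 10 fell, 1 rose and 52 had a log2 fold change below 0, with a median of -1.14. Ccnb1, cyclin B1, had 43.8, 36.1, 7.98 and 7.60 in the mock samples and 4.10, 4.07, 2.37 and 2.94 after IR, a log2 fold change of -2.27 ± 0.57 (SE, adjusted p = 0.0199), a call lost without mock sample 2 or IR sample 3. Cdc25b, a phosphatase that activates the mitotic kinase, had 30.3, 35.1, 32.4 and 29.5 in the mock samples and 18.2, 11.5, 14.4 and 12.9 after IR, a log2 fold change of -1.15 ± 0.12 (SE, adjusted p = 0.000104). The mock samples split into pairs for Ccnb1 and lay close together for Cdc25b, which was called in every fit that left out 1 library. Mki67, the common marker of cycling cells, had 99.9, 101, 36.8 and 45.9 in the mock samples and 60.6, 37.9, 27.5 and 30.4 after IR, with overlap, and was not called (adjusted p = 0.156). The 1 mitosis gene that rose was Gtse1, whose promoter element is shown above and whose product holds p53 in check during G2. It had 14.4, 13.8, 2.90 and 4.52 in the mock samples and 47.7, 42.2, 48.3 and 51.2 after IR, a log2 fold change of 2.62 ± 0.41 (SE, adjusted p = 0.00165), with no change called in Trp53-/- cells, 2.55 and 3.95 against 3.35 and 2.73 (adjusted p of the difference 0.0440). Clustered histone genes, which are transcribed in S phase, showed 16 of 59 lower and none higher, with Hist1h2ah at 21.5, 19.3, 6.35 and 9.98 in the mock samples and 5.30, 2.55, 2.66 and 2.51 after IR. Many histone genes are near-identical copies that share reads, so that single members are uncertain.

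The number of mitosis genes called lower turned on how the mock samples were treated. It was 39 with the replicate number as a block, 38 without mock sample 3, 20 without mock sample 4, 5 without IR sample 2 or IR sample 4, 4 without mock sample 1, 3 without mock sample 2 or IR sample 3, 2 without mock samples 1 and 2, 1 with the silent-gene covariate, 45 within samples 1 and 2 and 3 within samples 3 and 4. For S phase genes it was 29 with the block, 13 without mock sample 1 or mock sample 2, 35 without mock sample 3, 14 without IR sample 2, 12 without IR sample 3, 6 without mock samples 1 and 2, 3 with the silent-gene covariate, 44 within samples 1 and 2 and 4 within samples 3 and 4. Among histone genes it was 5 without mock sample 1, 4 without mock sample 2 or IR sample 3, 10 without IR sample 2, 7 without IR sample 4, 9 within samples 3 and 4, 3 without mock samples 1 and 2, where 2 were called higher, and 1 with the silent-gene covariate. The summed RPKM of the S phase list was 1606, 1519, 831 and 913 in the mock and 696, 679, 604 and 682 in the irradiated samples, so mock samples 3 and 4 also lay above all irradiated samples. For mitosis the sums were 1546, 1477, 552 and 603 and 685, 520.5, 445 and 486, and here mock samples 3 and 4 lay within the irradiated range. Erythroid and cell division sums were high in the same mock samples, 1 and 2, and the part of erythroid precursors in the cell division genes was not tested.

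**Figure D3:**
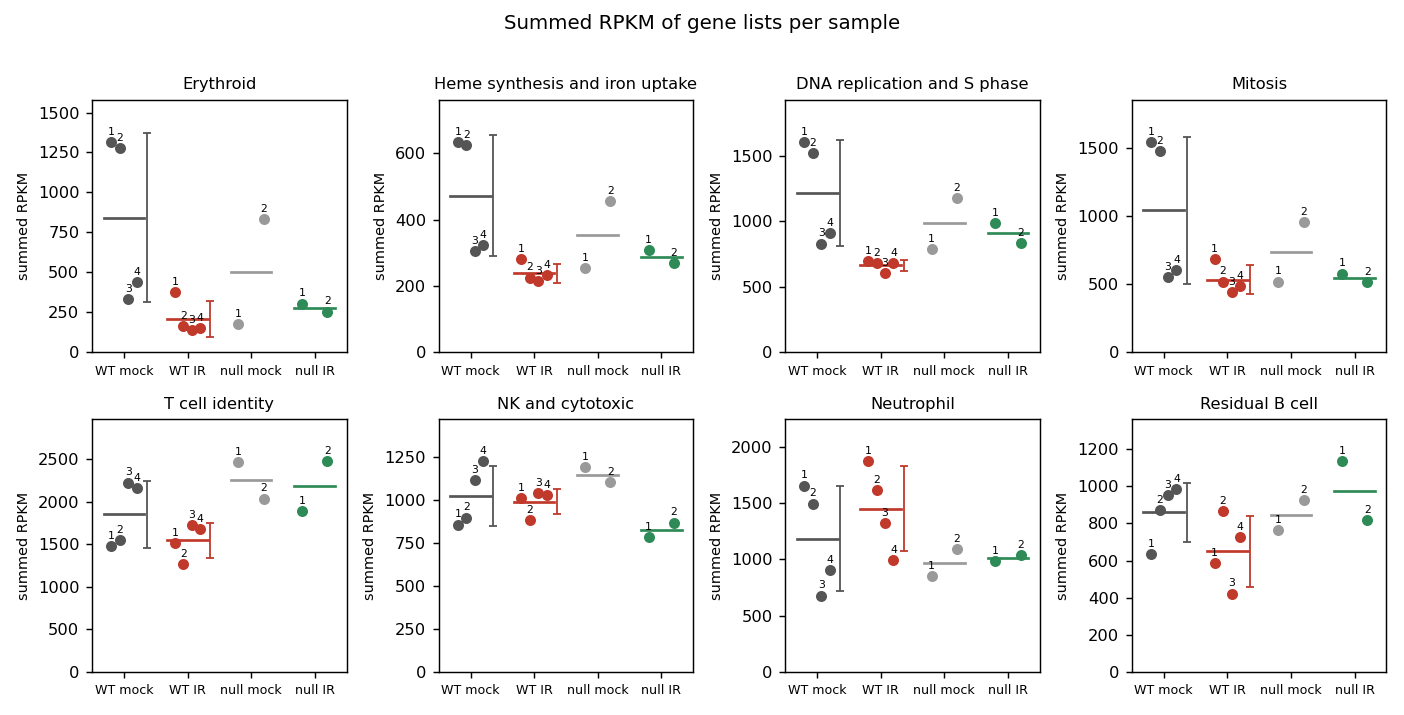
Summed RPKM of 8 gene lists in each wild-type (WT) and Trp53-/- (null) non-B sample, with sample numbers, group means as lines and the SD beside the wild-type groups. Mock samples 1 and 2 are high for erythroid, heme, S phase, mitosis and neutrophil genes and low for T cell genes, and the irradiated samples lie below all mock samples for heme and S phase genes.

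T cells made up the lymphoid core of the fraction, and most of their identity genes were not called. Of 35 genes 4 fell and none rose, with a median of -0.24, against 4.11% of all genes called lower. The log2 fold change was below 0 for 31 of the 35, and the median was -0.52 without mock samples 1 and 2. Cd3e had 56.9, 58.2, 81.8 and 79.6 in the mock samples and 63.2, 47.2, 63.03 and 62.2 after IR, and Cd4 had 38.7, 43.4, 60.8 and 60.05 in the mock samples and 49.2, 43.4, 52.7 and 53.99 after IR, both with overlap and adjusted p values of 0.310 and 0.989. Thy1, a surface glycoprotein of all mouse T cells, stood apart from them. It had 74.1, 76.01, 102 and 99.2 in the mock samples and 50.2, 39.5, 43.9 and 42.5 after IR, a log2 fold change of -0.98 ± 0.13 (SE, adjusted p = 0.000538), so that every irradiated sample was below every mock sample, and the change differed from that of -0.12 in Trp53-/- cells (adjusted p = 0.0432). The CD8 coreceptor chains followed, with 48.3, 49.8, 69.5 and 71.9 in the mock samples and 40.5, 28.2, 45.3 and 41.5 after IR for Cd8a, a log2 fold change of -0.61 ± 0.17 (SE, adjusted p = 0.0305), and a log2 fold change of Cd8b1 of -0.58 (adjusted p = 0.0265), while the fourth gene was Rasgrp1, an activator of Ras behind the T cell receptor, with -0.61 (adjusted p = 0.0156). The list count was 1 without mock sample 3 or mock sample 4, 2 without IR sample 1 or IR sample 2, and 10 without mock samples 1 and 2, which had the lowest T cell sums of the mock group (1473, 1550.4, 2223 and 2155 in the mock and 1515, 1262, 1722 and 1680.2 in the irradiated samples). Thy1 was called in each of these fits. The call of Cd8a was lost without mock sample 3 or 4 or IR sample 1 or 2, that of Cd8b1 without mock sample 3 or 4 or IR sample 2, and that of Rasgrp1 without mock sample 3 or 4 or IR sample 1.

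In the list of regulatory and activated T cell genes, 5 of 18 rose and 1 fell. All 5 encode surface receptors that activated or regulatory T cells carry. Pdcd1, which encodes the inhibitory receptor PD-1, had 12.6, 13.6, 6.55 and 7.51 in the mock samples and 23.2, 30.5, 22.1 and 34.5 after IR, a log2 fold change of 1.45 ± 0.25 (SE, adjusted p = 0.00301). Tnfrsf9, the costimulator 4-1BB, had 13.7, 12.1, 11.7 and 10.4 in the mock samples and 25.4, 27.9, 24.7 and 33.01 after IR, a log2 fold change of 1.18 ± 0.11 (SE, adjusted p = 5.09e-05). Tnfrsf18 (GITR) rose by 1.02, Ctla4 by 1.05 and Tnfrsf4 (OX40, the receptor of the Tnfsf4 product) by 0.80, all without overlap. The genotype difference passed for 4 of the 5, not for Pdcd1 (adjusted p = 0.149). Foxp3, the factor that defines regulatory T cells, had 14.3, 16.5, 14.9 and 16.4 in the mock samples and 18.6, 14.05, 17.6 and 24.95 after IR, and Il2ra 9.85, 10.1, 12.3 and 9.51 in the mock samples and 12.8, 12.3, 13.1 and 19.1 after IR, with overlap in both and no call (adjusted p = 0.344 and 0.101). Cd40lg, the helper T cell ligand of CD40, fell from 14.3, 14.3, 27.2 and 29.9 to 10.1, 7.32, 12.6 and 13.8, a log2 fold change of -0.89 ± 0.28 (SE, adjusted p = 0.0479), a call that was lost without any 1 of mock samples 3 and 4, IR samples 1, 2 and 3 and the irradiated Trp53-/- samples. The summed RPKM of the list was 323 to 336 in the mock and 417 to 506 in the irradiated samples.

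Of 34 NK and cytotoxic genes 1 fell and none rose, with a median of -0.059. The receptor genes Ncr1 and Klrb1c had 40.3, 41.8, 60.2 and 68.02 in the mock samples and 45.4, 34.4, 46.97 and 49.9 after IR for Ncr1 (adjusted p = 0.370) and 22.4, 24.2, 34.97 and 37.96 in the mock samples and 32.6, 27.7, 38.2 and 39.5 after IR for Klrb1c (adjusted p = 0.372). The gene that fell was Xcl1, the chemokine by which NK and CD8 T cells call dendritic cells, with 15.1, 14.4, 14.4 and 18.8 in the mock samples and 9.71, 6.73, 8.65 and 10.7 after IR, a log2 fold change of -0.79 ± 0.15 (SE, adjusted p = 0.00569). The lower calls numbered 3 without mock sample 1 and 2 without mock sample 2, without IR sample 1 or with the block, and 1 gene was called higher without mock sample 3, IR sample 2 or IR sample 4. In Trp53-/- cells the list median was -0.58, and Ncr1 measured 62.7 and 59.1 in the mock and 30.4 and 34.8 in the irradiated samples, a change of -0.89 (adjusted p = 0.110). The genotype difference passed for 2 of the 34 genes. Of 17 lymphocyte homing receptors, 1 fell, the chemokine receptor gene Cxcr3, from 29.1, 29.9, 29.5 and 33.7 to 22.7, 17.2, 17.9 and 20.1, a log2 fold change of -0.64 ± 0.13 (SE, adjusted p = 0.00642). S1pr1, which lets lymphocytes leave the spleen, had 66.6, 71.4, 98.7 and 102 in the mock samples and 67.3, 43.8, 80.02 and 74.4 after IR and was not called (adjusted p = 0.217).

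Of 20 genes of the B cells that remained 18 had a log2 fold change below 0 and 3 fell, with a median of -0.53. Cd22, an inhibitory coreceptor, had 35.95, 51.2, 56.7 and 59.1 in the mock samples and 25.6, 34.8, 22.2 and 33.4 after IR, a log2 fold change of -0.79 ± 0.19 (SE, adjusted p = 0.0156). Blk, a kinase of the B cell receptor, fell by 0.90 (adjusted p = 0.0375), Ralgps2 had a log2 fold change of -0.76, and Ms4a1, which encodes CD20, was not called, with 33.8, 44.8, 48.4 and 47.5 in the mock samples and 24.9, 46.9, 22.3 and 44.1 after IR. The calls were 1 without mock sample 2, 3 or 4 or without IR sample 1 or 3, 7 without mock sample 1, 9 without IR sample 2 and 6 without IR sample 4, and 0 with the silent-gene covariate. Of the 9 plasma cell genes none was called by limma, and Sdc1 had 8.96, 10.2, 4.63 and 4.36 in the mock samples and 10.6, 13.96, 5.50 and 10.53 after IR.

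Of 30 monocyte and macrophage genes 2 rose and none fell, with a median of 0.31, against 5.74% of all genes called higher. Csf1r had 58.9, 58.4, 51.2 and 57.9 in the mock samples and 61.6, 80.97, 57.1 and 49.6 after IR, and the lysozyme gene Lyz2 104, 100.3, 109 and 100.3 in the mock samples and 118, 125, 101 and 93.3 after IR, both with overlap. Cd14, the lipopolysaccharide coreceptor, had 19.1, 20.9, 5.39 and 9.54 in the mock samples and 53.8, 51.2, 47.3 and 24.5 after IR, a log2 fold change of 1.77 ± 0.42 (SE, adjusted p = 0.0161), with IR sample 4 the lowest of the irradiated samples and mock samples 3 and 4 the lowest of all. The call of Cd14 was lost with the silent-gene covariate (adjusted p = 0.149). The count of higher calls was 0 with that covariate, 1 with the block, 1 without mock sample 2 or 3 or IR sample 1, 2 or 3, 4 without either mock Trp53-/- sample and 6 without mock samples 1 and 2. Of 17 genes of resident splenic macrophages 2 rose. Marco, the scavenger receptor of marginal zone macrophages, had 1.18, 1.84, 1.827 and 1.89 in the mock samples and 15.9, 23.2, 21.6 and 19.3 after IR, a log2 fold change of 3.23 ± 0.33 (SE, adjusted p = 8.05e-05), the largest change of any myeloid list gene. In Trp53-/- samples it measured 1.16 and 3.84 in the mock and 7.20 and 2.46 after IR, and the genotypes differed (adjusted p = 0.0296). Clec4n, a C-type lectin receptor (Dectin-2), rose by 1.00 (adjusted p = 0.0174), a call lost without IR sample 3, whereas Spic and Vcam1 of red pulp macrophages were not called, with 15.9, 27.6, 21.9 and 26.3 in the mock samples and 31.2, 36.4, 36.9 and 36.4 after IR for Spic.

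Of 24 neutrophil genes 2 rose and none fell, against 5.74% of all genes called higher. The receptor genes of mature neutrophils Il1r2 and Cxcr2 rose, Il1r2 with 24.3, 20.7, 5.40 and 11.7 in the mock samples and 51.6, 52.1, 45.3 and 27.7 after IR, a log2 fold change of 1.64 ± 0.39 (SE, adjusted p = 0.0163), and Cxcr2 with 85.8, 80.3, 41.2 and 63.6 in the mock samples and 144, 130.4, 123 and 78.2 after IR, a log2 fold change of 0.82 ± 0.24 (SE, adjusted p = 0.0335). Mpo, a primary granule gene of promyelocytes, had 45.1, 41.5, 6.29 and 9.27 in the mock samples and 17.6, 8.24, 3.995 and 3.21 after IR, with overlap, a log2 fold change of -1.398 ± 0.69 (SE, adjusted p = 0.174), and was called lower with the block (adjusted p = 0.0366). S100a8, the most abundant neutrophil transcript, had 175, 168, 125 and 143 in the mock samples and 226, 222, 193 and 144 after IR (adjusted p = 0.123). The higher calls numbered 1 without any 1 of mock samples 3 and 4 and IR samples 1, 2 and 3, 5 with the block, which also called 1 lower, and 9 without mock samples 1 and 2. With the silent-gene covariate there was none, and Il1r2 and Cxcr2 both lost their calls (adjusted p = 0.140 and 0.192). Among dendritic cell genes, Cd83 and Ccl22, which mark maturation, rose and the other 15 were not called, although 1 was called lower with the block. Cd83 had 33.4, 40.3, 37.5 and 37.3 in the mock samples and 56.1, 73.6, 49.9 and 64.9 after IR, a log2 fold change of 0.70 ± 0.13 (SE, adjusted p = 0.00440), against 0.85 in Trp53-/- cells (adjusted p = 0.0735). The call of Ccl22 (adjusted p = 0.0415) was lost without mock sample 1, 2 or 4, IR sample 2, 3 or 4 or either mock Trp53-/- sample. Itgax and Flt3, which define dendritic cells, had log2 fold changes of 0.18 and 0.26 and were not called.

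Of 14 genes of basophils, mast cells and eosinophils 3 fell, and 2 of these also fell in Trp53-/- cells, against 0.25% of all genes called lower there. Gata2, a transcription factor of basophils, mast cells and progenitors, had 7.06, 5.33, 5.48 and 7.59 in the mock samples and 4.36, 2.85, 3.75 and 2.73 after IR, a log2 fold change of -0.81 ± 0.19 (SE, adjusted p = 0.0139), and 6.41 and 6.93 against 2.43 and 1.54 in Trp53-/- samples, a change of -1.55 (adjusted p = 0.0375). Ms4a2, a chain of the IgE receptor, fell from 4.47, 4.36, 2.90 and 3.40 to 2.03, 2.09, 2.83 and 2.02 (adjusted p = 0.0246) and had a log2 fold change of -1.59 in Trp53-/- cells (adjusted p = 0.0262). The third, Cd200r3, was not called in Trp53-/- cells (adjusted p = 0.0767), and the protease genes Mcpt8 and Cpa3 were not called. The call of Ms4a2 was lost without mock sample 1 or 2 or IR sample 1 or 2, and that of Cd200r3 without mock sample 4 or IR sample 1 or 2. With the block, 1 gene of the list was called higher. Megakaryocyte genes had 1 of 19 higher, Selp (P-selectin), against 5.74% of all genes. Selp had 2.29, 2.37, 1.07 and 1.60 in the mock samples and 6.30, 4.33, 5.90 and 2.43 after IR, a log2 fold change of 1.14 ± 0.29 (SE, adjusted p = 0.0197). The call was lost without IR sample 1 or 3, while 2 genes were called without IR sample 2. Selp also lost its call with the silent-gene covariate (adjusted p = 0.232). Pf4 and Itga2b were not called. In Trp53-/- cells 3 of the 19, Ppbp, Tubb1 and Clec1b, were called lower and the list median was -1.01, against 0.21 in wild-type cells. The genotype difference passed for 5 of the 19, against 7.35% of all genes, among them Pf4, with log2 fold changes of 0.43 in wild-type and -1.16 in Trp53-/- cells (adjusted p of the difference 0.0470).

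Of 10 progenitor genes, Gata2 and Myb fell, and Myb was lost without mock sample 1 or 2 or IR sample 1 or 2. Of 5 tested stroma genes 1 rose, the chemokine gene Cxcl13, with 0.156, 0.242, 0.403 and 0.185 in the mock samples and 9.83, 14.8, 4.03 and 3.18 after IR, a log2 fold change of 3.27 ± 0.41 (SE, adjusted p = 0.000398). The collagen gene Col1a1 was below the filter in all 8 samples, with RPKM values of 0.124 to 0.546.

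Immediate early genes are transcribed within minutes of a stimulus. Of 23 of them 9 rose and 1 fell at 4 h, with a median of 0.43. Fos, a component of AP-1, had 42.6, 46.2, 21.6 and 22.9 in the mock samples and 103, 96.8, 82.7 and 61.7 after IR, a log2 fold change of 1.41 ± 0.29 (SE, adjusted p = 0.00814). In Trp53-/- samples it was 11.4 and 14.7 and 38.9 and 18.8, a change of 1.03 (adjusted p = 0.248) and the difference between genotypes did not pass (adjusted p = 0.673). Nr4a3, an orphan nuclear receptor induced by antigen receptors, had 3.67, 3.48, 6.52 and 7.23 in the mock samples and 16.2, 13.3, 17.7 and 21.1 after IR, a log2 fold change of 1.66 ± 0.23 (SE, adjusted p = 0.000783), and Ier3, where IR sample 4 lay just below the highest mock sample, had 20.5, 13.5, 5.47 and 9.95 in the mock samples and 47.9, 30.7, 37.1 and 20.2 after IR, a log2 fold change of 1.503 ± 0.36 (SE, adjusted p = 0.0156). Egr1 had 15.2, 16.2, 22.3 and 21.5 in the mock samples and 25.2, 18.2, 19.2 and 16.3 after IR, with overlap, and was not called. Myc, which drives growth and division, was the gene that fell, with 34.95, 32.4, 34.6 and 40.3 in the mock samples and 21.9, 14.4, 10.9 and 11.4 after IR, a log2 fold change of -1.30 ± 0.18 (SE, adjusted p = 0.000691). In Trp53-/- cells its log2 fold change was 0.15 (adjusted p of the difference 0.0200).

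Of 30 cytokine, chemokine and NF-kB feedback genes 9 rose and none fell. Cxcl2, which attracts neutrophils, had 1.38, 2.35, 0.256 and 0.0590 in the mock samples and 9.53, 4.69, 9.67 and 3.50 after IR, a log2 fold change of 2.47 ± 0.53 (SE, adjusted p = 0.00954). The values of both groups spread widely, and the lowest irradiated sample was 3.50 against a highest mock sample of 2.35. Il10, the anti-inflammatory cytokine, had 1.87, 1.86, 0.358 and 0.493 in the mock samples and 3.73, 7.87, 2.62 and 3.28 after IR, a log2 fold change of 1.61 ± 0.42 (SE, adjusted p = 0.0241), a call lost without mock sample 3 or 4 or IR sample 2. Il1b, a product of activated myeloid cells, had 80.3, 74.1, 39.8 and 55.6 in the mock samples and 134, 130.1, 117 and 94.3 after IR, a log2 fold change of 0.96 ± 0.23 (SE, adjusted p = 0.0151), while Tnf had 23.2, 18.1, 20.3 and 20.4 in the mock samples and 23.3, 20.4, 14.7 and 17.5 after IR and was not called (adjusted p = 0.563). Tnfaip3, the feedback inhibitor A20, rose by 0.85 with 29.4, 31.6, 30.9 and 32.2 in the mock samples and 55.3, 58.8, 56.9 and 54.8 after IR. The genotype difference passed for none of the 9. The count was 4 without mock sample 3 or 4, 5 without IR sample 3, 2 with the silent-gene covariate and 1 within samples 1 and 2.

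Interferon-stimulated genes had 6 of 31 higher, none lower, and 30 above 0, with a median of 0.48 against 0.0043 in Trp53-/- cells. The genotype difference passed for 2 of the 31 genes, against 7.35% of all genes. Mx1, the antiviral GTPase, had 24.05, 21.1, 24.8 and 23.8 in the mock samples and 66.1, 63.5, 74.6 and 68.6 after IR, a log2 fold change of 1.52 ± 0.11 (SE, adjusted p = 4.11e-06). It was 21.8 and 28.97 in the mock and 18.3 and 14.1 in the irradiated Trp53-/- samples, -0.63 on the log2 scale, and the genotypes differed (adjusted p = 0.000110). Ifit1 had 43.9, 38.001, 33.2 and 27.5 in the mock samples and 105, 79.5, 93.1 and 48.5 after IR, a log2 fold change of 1.14 ± 0.21 (SE, adjusted p = 0.00490), and Isg15 46.4, 39.4, 32.96 and 29.5 in the mock samples and 73.5, 54.4, 65.5 and 37.6 after IR, with IR sample 4 inside the mock range, no call (adjusted p = 0.0717) and a call with the block (adjusted p = 0.0307). Irf7, the factor that amplifies the response, had 85.3, 74.7, 76.3 and 75.96 in the mock samples and 135, 106, 115 and 79.7 after IR, and its change of 0.45 had an adjusted p of 0.0404 but was inside the fold threshold. The list count was 10 without mock sample 1, 14 without IR sample 4, 9 with the block and 1 with the silent-gene covariate. In wild-type B cells the list median was -0.49, and the change differed between cell types for 23 of the 31 genes (adjusted p under 0.05, against 28% of 14598 genes).

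**Figure D4:**
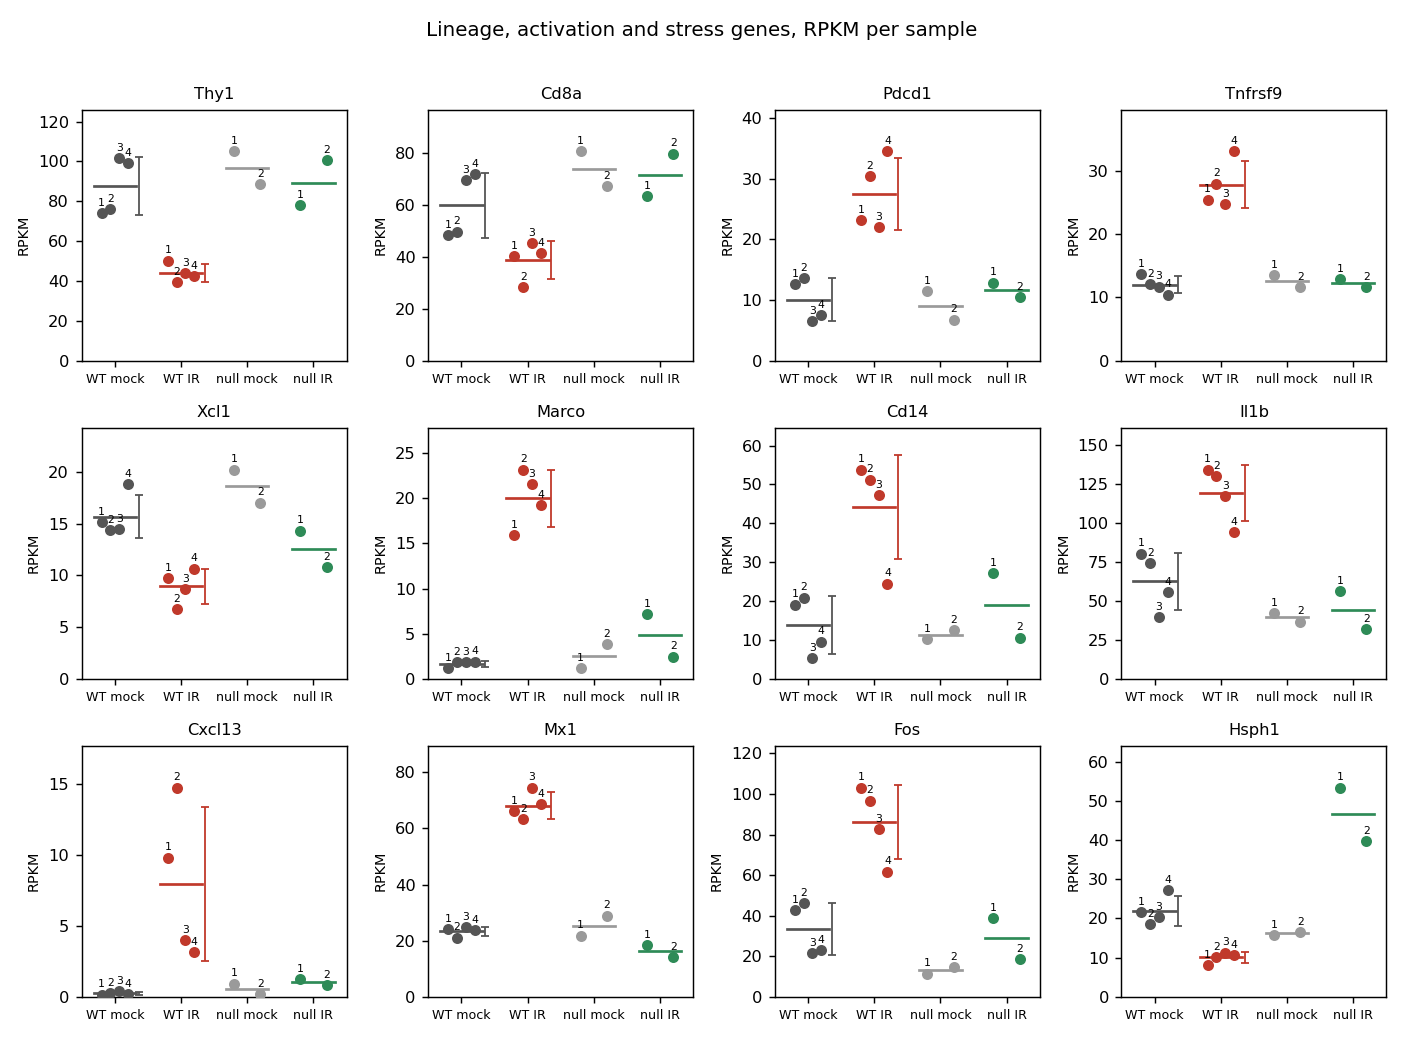
RPKM of 12 lineage, activation and stress genes in each wild-type (WT) and Trp53-/- (null) non-B sample, with sample numbers, group means as lines and the SD beside the wild-type groups. Thy1, Cd8a, Xcl1 and Hsph1 are lower and the other 8 genes higher in all 4 irradiated wild-type samples, and Hsph1 is higher in both irradiated null samples (53.4 and 39.7).

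Of 19 chaperone genes 1 rose, 1 fell and 6 differed between genotypes. Hsph1, which encodes a large heat shock protein, fell from 21.6, 18.5, 20.4 and 27.3 to 8.18, 10.2, 11.3 and 10.7 in wild-type cells, a log2 fold change of -1.08 ± 0.14 (SE, adjusted p = 0.000451), and rose from 15.8 and 16.5 to 53.4 and 39.7 in Trp53-/- cells, by 1.48 (adjusted p = 0.0184, adjusted p of the difference 0.000187). Hspa1a, an inducible Hsp70 gene, had 3.55, 5.92, 1.34 and 4.07 in the mock samples and 6.10, 18.6, 10.3 and 11.7 after IR, a log2 fold change of 1.56 ± 0.44 (SE, adjusted p = 0.0308), and shares reads with its near-identical copy Hspa1b, so its level is uncertain. Its call was lost without mock sample 1 or 3 or IR sample 2, 3 or 4. The constitutive Hspa8 had 78.2, 76.02, 89.1 and 85.9 in the mock samples and 79.8, 93.3, 84.3 and 75.5 after IR and was not called. With the block, 2 chaperone genes were called in each direction, and 2 were called lower without mock sample 3 or 4 or IR sample 2 or 4.

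Of 85 ribosomal protein genes 1 was called, Rpl3l, a muscle paralog with a mean RPKM of 1.86 in the mock samples, and of 81 nuclear genes of the respiratory chain 1, the testis isoform gene Cox6b2. The medians were -0.065 and -0.19. Both calls were higher and both were lost without any 1 of several libraries, Cox6b2 without mock sample 3 or 4 or IR sample 1 or 3, and Rpl3l without mock sample 2, 3 or 4, IR sample 1, 2 or 3 or any Trp53-/- sample. None of 15 MHC class I genes was called by limma, with log2 fold changes between -0.25 and 0.21, and H2-K1 had 112, 109, 136 and 127 in the mock samples and 127, 143, 123 and 108 after IR. Of 10 class II genes 1 fell, H2-Ob, which in B cells restrains peptide loading, from 40.3, 51.1, 57.8 and 52.7 to 19.8, 30.4, 20.7 and 34.9, a log2 fold change of -0.95 ± 0.18 (SE, adjusted p = 0.00498), whereas Cd74 had 119, 119.8, 138 and 133 in the mock samples and 127, 144, 113 and 122 after IR, and 2 class II genes were called lower without IR sample 4. Of the 1537 silent-tissue genes 41 passed the filter, 6 were called higher and 1 lower, with 11 higher without mock sample 1 or IR sample 2, 2 lower without mock sample 3 and none lower without IR sample 3. Their median log2 fold change was 0.39, and 35 of the 41 lay above 0. The medians of the monocyte (0.31), cytokine (0.38), immediate early (0.43) and interferon (0.48) lists were of similar size.

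With the silent-gene covariate, 36 of the 72 named genes that were called lost their call, and none of the 72 changed direction. Among cell division genes these were Mcm2, Cdc6, Ccnb1, Ccnb2, Gtse1, Hist1h2ah and Hist3h2ba, and among iron uptake genes Tfrc and Steap3. Among lymphoid genes they were Cd22, Blk, Cd40lg, Cxcr3 and H2-Ob, and among the other blood lineages Cd14, Clec4n, Il1r2, Cxcr2, Ccl22, Gata2, Ms4a2, Cd200r3 and Selp. Among response genes they were Fos, Myc, Ier3, Cxcl2, Il10, Il1b, Ifit1 and Hspa1a, and the last 5 were Polh, Bex4, Gstm5, Cox6b2 and Rpl3l. The calls of Cdkn1a, Plk2, Mdm2, Bbc3, Tnfrsf10b, Bax, Aen, Mgmt, Polk, Phlda3, Klf1, Car1, Thy1, Marco and Mx1 were among those kept. The covariate left no call in the basophil, homing receptor, class II, ribosomal protein, respiratory chain and silent-tissue lists, and 1 each in the resident macrophage, dendritic cell and progenitor lists. Silent-gene shares were high in 3 of the 4 irradiated and in no mock library, so covariate and treatment overlapped. A lost call thus need not mean a smaller change. With the covariate the log2 fold change was 1.86 for Cd14 and -2.14 for Cdc6, close to the main fit. For Blk (-0.29) and Cd22 (-0.47) it was smaller in size. With IR sample 2 as the sole irradiated library 43 of the 72 calls were lost.

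Within samples 1 and 2 alone 1 T cell gene and no residual B cell or homing receptor gene was called lower, and 1 silent-tissue gene was called higher. Within samples 3 and 4 alone 8 T cell, 6 residual B cell, 3 NK, 3 homing receptor, 3 immediate early and 2 heme genes were called lower and 4 neutrophil genes higher, while the dendritic cell, basophil and megakaryocyte lists held no call. Without mock samples 1 and 2, 3 NK and 3 homing receptor genes were called lower. Every other list count that moved by more than 1.5 times in these 3 fits is given beside its list or moved by 1 or 2 genes.

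The share of genes called went down with their level. Among genes with a mean RPKM up to 1, 15.9% were called, and the share came down to 4.53% above 50 and to 2.67% above 100, while the median absolute log2 fold change came down from 0.41 to 0.13 and 0.080. The highest RPKM of any gene was 157.2 to 226 in the 8 samples. The authors kept 1 read of each set of duplicates, which limits how many reads an abundant transcript can hold, and the part of this limit in the small changes of Cd3e, Lyz2, B2m, S100a8 and other abundant markers was not tested.

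**Figure D5:**
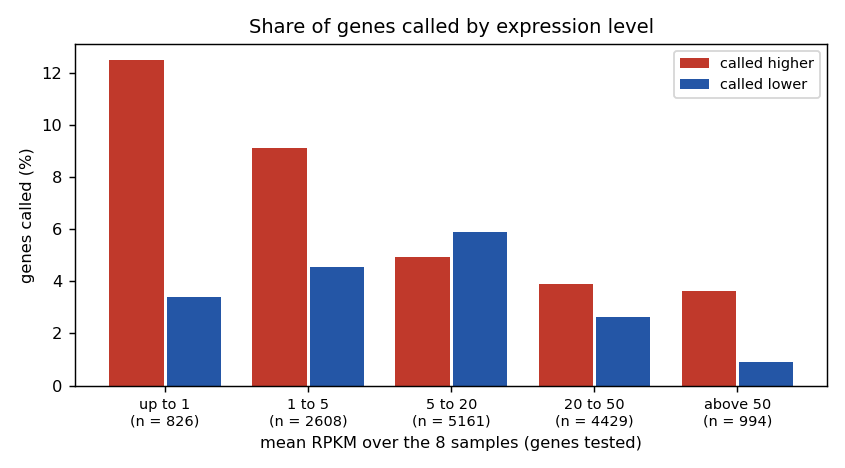
Share of tested genes called higher or lower in wild-type non-B cells after IR (%, bars from 0), by mean RPKM over the 8 samples, with the number of genes in each class. Both directions come down to their lowest shares above an RPKM of 50, where 3.62% were called higher and 0.905% lower.

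Set against Trp53-/- non-B cells, 427 of the 1381 calls (30.9%) had a significant difference between genotypes, 320 of those higher and 107 of those lower, against 7.35% of all genes tested. The calls were chosen by their wild-type change, which is part of this difference, so the choice itself raises their share. High shares of silent-tissue genes with reads occurred only in irradiated wild-type libraries of this comparison. The genotype difference was not counted with the silent-gene covariate, and the part of these libraries in it was not tested. In Trp53-/- cells 62 genes were called (0.442%), and 6 were called in the same direction in both genotypes. Of these, 2 rose, Aen and Lrrc16b, and 4 fell, among them Cdc25b, Gata2 and Ms4a2. Lrrc16b had 1.23, 1.22, 1.203 and 1.397 in the mock samples and 4.31, 6.26, 3.94 and 7.82 after IR, a log2 fold change of 1.74 ± 0.23 (SE, adjusted p = 0.000560), and 0.917 and 0.971 against 6.34 and 3.30 in Trp53-/- samples. The Trp53-/- groups had 2 samples each, and the number of calls with a genotype difference fell to between 220 and 265 without any 1 of its 4 samples. Against wild-type B cells, 606 of the 1381 calls (43.9%) differed in their change, against 28% of 14598 genes. Here too the calls were chosen by a change that is part of the difference, which itself raises their share. Among the named p53 genes, Bbc3 rose by 4.36 in B cells (adjusted p of the difference 3.7e-07) and Cdkn1a by 5.83 (adjusted p 5.09e-05), while Mgmt rose by 2.86 (adjusted p 0.572). The changes of Marco, Cxcl13 and Car1 were larger in size in non-B cells, with log2 fold changes of 1.58, 0.66 and -3.31 in B cells (adjusted p of the difference 0.000301, 0.00514 and 0.00399).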

How the data were processed

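RNA-Seq libraries of depleted total RNA were made from B and non-B spleen cells of irradiated and mock mice. The authors masked bases with a quality below 20, aligned the reads to mm9, reduced duplicated reads to 1, assigned the rest to UCSC genes and deposited RPKM values with 3 decimals. The submitters' processing notes name TopHat2 2.0.8 and featureCounts 1.4.5. Whether counting used the strand is not given in the sources used here, so overlapping genes on opposite strands may share reads.

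RPKM is not a count, so limma 3.58.1 (R 4.3.3) was fitted on log2(RPKM + 0.5) with the trend option, 12 non-B samples in 1 fit with 4 group means, for genes with RPKM above 1 in any wild-type non-B sample. The genotype difference is the interaction in that fit. The cell type difference came from a fit of the 16 wild-type samples. The fit was also run on simulated data with independent noise and planted changes. Those data held neither the split of the mock samples nor the high silent-gene shares, so they cannot show how either affected the calls. Depth was estimated from the steps of low RPKM values, and counting error alone sets the precision it gives.

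The members and gene lists were chosen with earlier results of these data known. Named genes are, in each lineage and function list, the first 2 as written and up to 2 called genes with the largest change in each direction. To these were added the 5 largest changes in each direction outside the lists without overlap (with a mean RPKM of at least 5 in the higher group). Up to 3 shared with Trp53-/- cells in each direction were added as well. Some members that this rule names are not reported here. The labels do not say that samples came from separate animals, in which case p-values would measure a technical spread. The study's methods give 4 Trp53+/+ and 2 Trp53-/- mice for each condition. Deviations of mock and IR samples from their group means had an r across genes of 0.155 to 0.330 for the 4 same-number pairs. For other pairs r was -0.383 to 0.325, so the number itself was not singled out. Every pair within samples 1 and 2 (0.155 to 0.330) or within samples 3 and 4 (0.132 to 0.329) was positive. Every pair across these sets was negative (-0.383 to -0.136). The alternatives included a block for the replicate number. Other alternatives changed the pseudocount, filter, scaling, thresholds, libraries and covariates.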

Additional observations from a re-analysis of the deposited data

Results flagged for a closer look

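In 300 sets of 4 samples (a named gene or a list sum in 1 wild-type non-B group), 17 held a sample far from the other 3, and chance alone marks about 1 in 20 such sets. In the mock group, sample 1 was high for Irf7 (85.3, others 74.7 to 76.3) and low for Marco (1.18, others 1.83 to 1.89). Mock sample 2 held the only reads of 1700007K13Rik (0.233) and Mir34a (1.835) in that group. Mock sample 3 was low for Csf1r (51.2, others 57.9 to 58.9) and for the summed cytokine list (704, others 757 to 760.4). Mock sample 4 was high for Lrrc16b (1.397, others 1.203 to 1.23) and Xcl1 (18.8, others 14.4 to 15.1).

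After IR, sample 1 was high for Hist1h2ah (5.30, others 2.51 to 2.66) and the summed erythroid list (376, others 139 to 163), and low for Spic (31.2, others 36.4 to 36.9). IR sample 2 was low for Cd3e (47.2, others 62.2 to 63.2) and high for Rpl3l (6.44, others 2.93 to 3.51). IR sample 3 was high for Ms4a2 (2.83, others 2.02 to 2.09). IR sample 4 was high for Cpt1c (4.86, others 3.61 to 3.82) and Il2ra (19.1, others 12.3 to 13.1) and low for Mdm2 (70.8, others 73.3 to 73.4).

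The response differed between genotypes for 427 called genes and between cell types for 606. Among named genes, Hsph1 had a log2 fold change of 1.48 in Trp53-/- against -1.08 in wild-type non-B cells. Trp53 had 0.53 in Trp53-/- non-B cells and 0.42 in wild-type B cells, against -0.33 in wild-type non-B cells. Irf7 had -0.43 in B and 0.45 in non-B cells, and Myb had 0.85 in B and -0.61 in non-B cells.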

How the results depend on the processing

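The number of genes called in wild-type non-B cells was 670 at an adjusted p below 0.01 (440 higher, 230 lower), 2615 without the fold threshold (1222 and 1393), 637 at an absolute log2 fold change above 1 (394 and 243), 423 with the silent-gene covariate (287 and 136) and 321 with IR sample 2 as the sole irradiated library (225 and 96), an alternative chosen after seeing the data. Within samples 1 and 2 alone 482 genes were called higher and 1016 lower, and within samples 3 and 4 alone 292 lower. Higher calls made up 58.3% of all calls, 69.5% without mock samples 1 and 2, 32.2% within samples 1 and 2 and 71.3% within samples 3 and 4. Leaving out 1 library at a time gave 918 to 1425 calls, 567 to 830 higher and 351 to 733 lower, and 220 to 505 calls with a genotype difference. The count of 606 with a cell type difference stayed within 1.5 times in the fits run for it. These changed the pseudocount, used quantile normalization or the block, or left out 1 library. The cell type difference was not fitted with the silent-gene covariate or without mock samples 1 and 2. The replicate block gave 1565 calls (885 higher, 680 lower) and, beyond the changes given beside the results, changed no other call of a named gene and no other list count by over 1.5 times. Pseudocount, low-value filters, median-ratio scaling and quantile normalization kept the count between 1065 and 1453, and genes with a mean RPKM of at most 50, chosen after seeing the data, gave 1341. A fit of the 8 wild-type samples alone, without the Trp53-/- samples, gave 1191 calls (697 higher, 494 lower). None of the 72 named calls reversed in any fit, while 21 of the 44 named genes tested and not called changed sign in 1 or more fits. Under the pseudocounts, filters, scalings, the fit without a mean-variance trend and that of the 8 wild-type samples alone, each list count that moved by more than 1.5 times moved by 1 or 2 genes. With the silent-gene covariate 36 of the 72 calls were lost. Depth limits genes near the filter, where 1 read over 2 kilobases is an RPKM of 0.0461 to 0.0719. For counts that moved with libraries or covariates, the cause was not tested.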
